A study of Caenorhabditis elegans with 6 samples.

Results

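The cyp-14A genes of Caenorhabditis elegans encode cytochrome P450 enzymes, and all 5 of them, cyp-14A1 to cyp-14A5, were taken by gene symbol from the deposited gene table, which lists 47656 genes. Each symbol occurred once, all 5 rows were described as cytochrome P450 family members, and all 5 WormBase identifiers carried the same symbol in an independent gene name table. RNA came from whole wild-type animals in 2 groups of 3 libraries. Both groups were kept at 20 °C in complete S-basal buffer with ampicillin at 100 µg/mL and with 200 µM FUDR. FUDR blocks DNA synthesis and so prevents progeny. The culture lasted 11 days and began at the last larval stage. The treated group also received 100 µM ilimaquinone, a sesquiterpenoid quinone from marine sponges, and the vehicle group did not. Whether replicates are separate cultures is not in the labels, so a p-value here measures the spread among these libraries alone, which may be technical.

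Cytochrome P450 enzymes are haem proteins that insert oxygen into small molecules, which makes foreign compounds easier to conjugate and excrete and also builds and breaks down signalling lipids. Most sit in the endoplasmic reticulum membrane and draw electrons from NADPH through a reductase, which in the worm is encoded by emb-8, with cytochrome b5 as a possible second donor. In C. elegans the intestine is the main site of xenobiotic metabolism, and cyp-14A3 is known as a gene that responds to ingested foreign compounds.

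One of the 5 genes, cyp-14A3, rose with ilimaquinone. Its level went from 3.60 ± 0.462 to 22.5 ± 4.56 CPM (counts scaled to library size, mean ± SD, n = 3 per group). The neighbours cyp-14A2 and cyp-14A4 had higher means with ilimaquinone and cyp-14A1 had overlapping groups, none of them past the test. The most abundant member, cyp-14A5, had a lower mean with ilimaquinone and did not pass the test either. All 5 members were abundant enough for edgeR's quasi-likelihood test, called edgeR below, with p-values adjusted by Benjamini-Hochberg over all 16506 tested genes. At an adjusted p under 0.05, 1 of the 5 was higher and 0 were lower, where 1.47% of all tested genes were called, 1.14% higher and 0.327% lower. At an unadjusted p under 0.05, 3 members were higher and 1 was lower, where 10.1% and 11.8% of all tested genes were, and DESeq2's Wald test called 2 members higher, where it called 5.34% of genes higher. The median log2 fold change of the 5 members was 1.18, and that of all tested genes was -0.02.

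The libraries held 32155192 to 39244786 estimated counts. Vehicle replicate 1 stood apart. Its score on the leading principal component of the log2 CPM values (57.6% of their variance) was -98.8. Vehicle replicates 2 and 3 scored 0.13 and -26.5. The ilimaquinone libraries scored 25.1 to 54.1, so the groups did not overlap on this component either. In vehicle replicate 1 the 16 germline and oocyte markers summed to 2901 CPM. They reached 740 and 910 CPM in vehicle replicates 2 and 3 and 450 to 653 CPM with ilimaquinone. For 38 sperm markers the sum was 425 CPM in vehicle replicate 1, 80.3 and 178 CPM in vehicle replicates 2 and 3, and 36.2 to 101 CPM with ilimaquinone. All 11 intestine markers found in the table were detected, and their sum was 3049 to 3855 CPM in vehicle and 3005 to 3325 CPM in ilimaquinone libraries. The median log2 fold change was -1.59 over the germline and oocyte markers and -1.90 over the 32 sperm markers tested, and without vehicle replicate 1 it was -0.57 and -1.09. Of the 32 tested sperm markers edgeR called 1, lower, with 27 at an unadjusted p under 0.05, and DESeq2 called 20. Of the germline and oocyte markers edgeR called 0, with 12 at an unadjusted p under 0.05, and DESeq2 called 12. Of the intestine markers 0 were called by edgeR or DESeq2, with 2 at an unadjusted p under 0.05. Among all tested genes edgeR called 1.47%, and DESeq2 called 5.34% higher and 5.75% lower. At an unadjusted p under 0.05, 10.1% were higher and 11.8% lower. The 10 neuron markers summed to 1390 CPM in vehicle replicate 1 and to 2178 to 2412 CPM elsewhere. The 5 body muscle markers summed to 2170 to 2741 CPM in vehicle and 2410 to 2593 CPM in ilimaquinone libraries, and the 7 hypodermis markers to 105 to 259 and 178 to 286 CPM. The part of cell composition in the results below was not tested, and in whole animals fewer cells of a type and less RNA per cell cannot be told apart.

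The members cyp-14A1 to cyp-14A4 form a cluster on chromosome X, and cyp-14A5 lies alone on chromosome V. On build WBcel235 the deposited loci were 13265041 to 13267359 for cyp-14A1 (gene 187183), 13267562 to 13269715 for cyp-14A2 (gene 187184), 13271837 to 13274218 for cyp-14A3 (gene 187185) and 13282043 to 13284204 for cyp-14A4 (gene 187573). The cluster spans 19164 bases. Between cyp-14A1 and cyp-14A2 lie 202 bases, between cyp-14A2 and cyp-14A3 2121 bases, and between cyp-14A3 and cyp-14A4 7824 bases. The locus of cyp-14A5 (gene 178926) is 5421018 to 5423488 on chromosome V. All 5 genes lie on the minus strand and share one layout in the Ensembl release 115 annotation: 1 transcript of 7 exons and 6 introns, coding for 491 to 498 residues. The protein of cyp-14A3 is the longest, at 498 residues, and its longest intron, 552 bases, is the longest of the family, against 300 bases in cyp-14A4. The deposited loci start at the Ensembl start and end at most 29 bases past the Ensembl end, except that of cyp-14A5, which ends 206 bases past it.

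The gene cyp-14A3 separated the groups most clearly. Its vehicle libraries held 129, 105 and 125 counts, or 3.69, 3.10 and 4.02 CPM for replicates 1, 2 and 3, and its ilimaquinone libraries held 741, 663 and 1009 counts, or 19.2, 20.5 and 27.7 CPM. Every ilimaquinone library was thus far above every vehicle library, and ilimaquinone replicate 3 was the highest. The mean CPM was 6.23 times as high with ilimaquinone, and the log2 fold change was 2.64 ± 0.20 (SE, edgeR adjusted p = 0.00541). Without vehicle replicate 1, the library with the highest germline and sperm marker sums, it was 2.65 (edgeR adjusted p = 0.00547). Only 0.200% of tested genes, 33 others, had a larger log2 fold change, and among the 72 tested P450 genes only cyp-33B1 did, so cyp-14A3 ranked 34 and 2.

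The gene cyp-14A2, which lies next to cyp-14A3, was low in all libraries. It was at 2.66, 3.22 and 1.73 CPM in vehicle replicates 1 to 3 and at 4.74, 5.48 and 7.07 CPM in ilimaquinone replicates 1 to 3. The groups did not overlap, as for 15.8% of tested genes in this direction. These values rest on 54 to 109 counts per vehicle library and 177 to 258 counts per ilimaquinone library. The log2 fold change was 1.18 ± 0.29 with an edgeR adjusted p of 0.113, past the threshold in DESeq2's Wald test (adjusted p = 0.00708) but in no other alternative.

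The least abundant member was cyp-14A4. It had 19, 23 and 15 counts in vehicle replicates 1 to 3, or 0.544, 0.680 and 0.482 CPM, and 37, 41 and 64 counts in ilimaquinone replicates 1 to 3, or 0.959, 1.27 and 1.75 CPM. Again all ilimaquinone values lay above all vehicle values, and ilimaquinone replicate 3 was the highest. The log2 fold change was 1.22 ± 0.37 (edgeR adjusted p = 0.152; DESeq2 adjusted p = 0.0713).

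The gene cyp-14A1, at the other end of the cluster, did not separate the groups. Its vehicle libraries were at 4.87, 8.01 and 4.53 CPM and its ilimaquinone libraries at 6.66, 7.58 and 7.07 CPM for replicates 1 to 3. Vehicle replicate 2 was higher than every ilimaquinone library, and the other vehicle libraries were lower than all of them. The log2 fold change was 0.29 ± 0.25 (edgeR adjusted p = 0.509), and it ranged from 0.13 without vehicle replicate 3 to 0.58 without vehicle replicate 2.

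The chromosome V member, cyp-14A5, went the other way in its means. It was at 206, 179 and 224 CPM in vehicle replicates 1 to 3 and at 160, 146 and 176.4 CPM in ilimaquinone replicates 1 to 3. The groups did not overlap, as for 15% of tested genes in this direction, but the highest ilimaquinone library lay close to the lowest vehicle library. The mean was 203 ± 22.3 CPM with vehicle and 161 ± 15.3 CPM with ilimaquinone, and the log2 fold change was -0.34 ± 0.12 (edgeR adjusted p = 0.182; DESeq2 adjusted p = 0.118). It had 4713 to 7194 counts per library, the most of the 5.

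**Figure D1:**
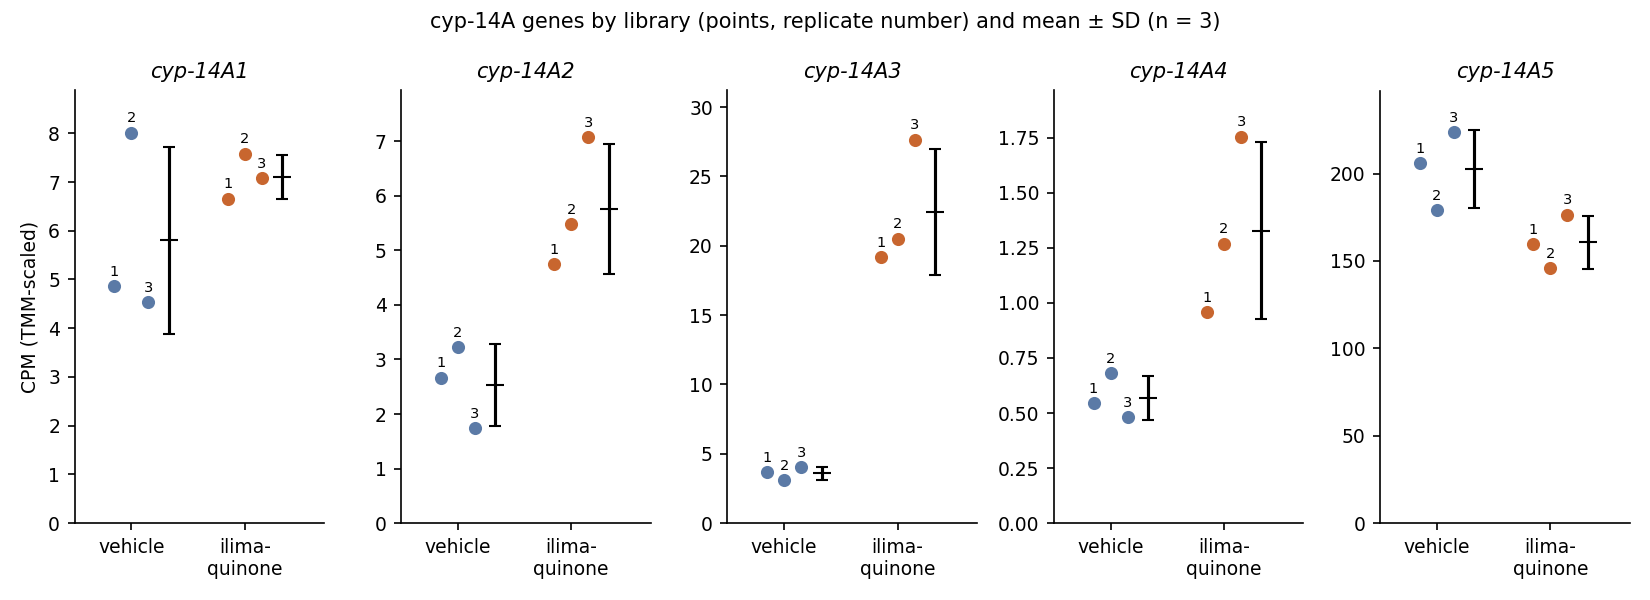
Level of each cyp-14A gene in CPM (y axis, from 0, a different range per panel) in the 3 vehicle and 3 ilimaquinone libraries; points are libraries with their replicate number, and bars are the mean ± SD. The ilimaquinone points of cyp-14A3, 19.2 to 27.7 CPM, lie far above its vehicle points, 3.10 to 4.02 CPM, while those of cyp-14A1 overlap.

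Levels of different genes were compared in TPM, which accounts for transcript length. With vehicle, cyp-14A5 stood at 141 ± 19.8 TPM, cyp-14A1 at 4.63 ± 1.45, cyp-14A3 at 2.84 ± 0.452, cyp-14A2 at 2.01 ± 0.656 and cyp-14A4 at 0.442 ± 0.0829 TPM (mean ± SD, n = 3). The neighbours cyp-14A3 and cyp-14A2 overlapped in this order, at 2.36 to 3.26 and 1.25 to 2.45 TPM, and cyp-14A1 exceeded cyp-14A3 only narrowly, its lowest library being at 3.34 TPM. With ilimaquinone the order changed: cyp-14A3, at 17.9 ± 3.53 TPM, stood above cyp-14A1, at 5.74 ± 0.463, and cyp-14A2, at 4.56 ± 0.933, whose libraries overlapped each other. The gene cyp-14A4 stayed lowest, at 1.05 ± 0.316 TPM, and cyp-14A5 highest, at 113 ± 9.42 TPM.

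Among the 80 genes listed with a cyp- symbol, cyp-14A5 had the highest mean TPM with vehicle, ahead of cyp-13B1 at 106 ± 30.2 TPM, whose vehicle libraries overlapped its own. With ilimaquinone it ranked 3, behind cyp-13B1 at 175.6 ± 56.3 TPM and cyp-33B1 at 145 ± 11.8 TPM. Over the same change of groups cyp-14A3 went from rank 43 to rank 18, cyp-14A2 from 48 to 41, cyp-14A4 from 69 to 60 and cyp-14A1 from 36 to 34.

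The summed level of the 5 genes overlapped between groups, and cyp-14A5 made up most of it. The sum was 170, 132 and 151 TPM in vehicle replicates 1 to 3 and 136, 133 and 157 TPM in ilimaquinone replicates 1 to 3, and these ranges overlap. The composition of the sum was not alike: cyp-14A5 supplied 93.3 ± 1.83% of it with vehicle and 79.5 ± 1.93% with ilimaquinone. The share of cyp-14A3 was 1.91%, 1.79% and 1.92% in the vehicle libraries and 11.1%, 12.6% and 13.9% in the ilimaquinone libraries. The 4 genes of the cluster alone summed to 9.91 ± 1.88 TPM with vehicle and 29.2 ± 4.84 TPM with ilimaquinone. TPM shares within a family are relative, so they show unequal change and not that any one gene stayed constant.

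**Figure D2:**
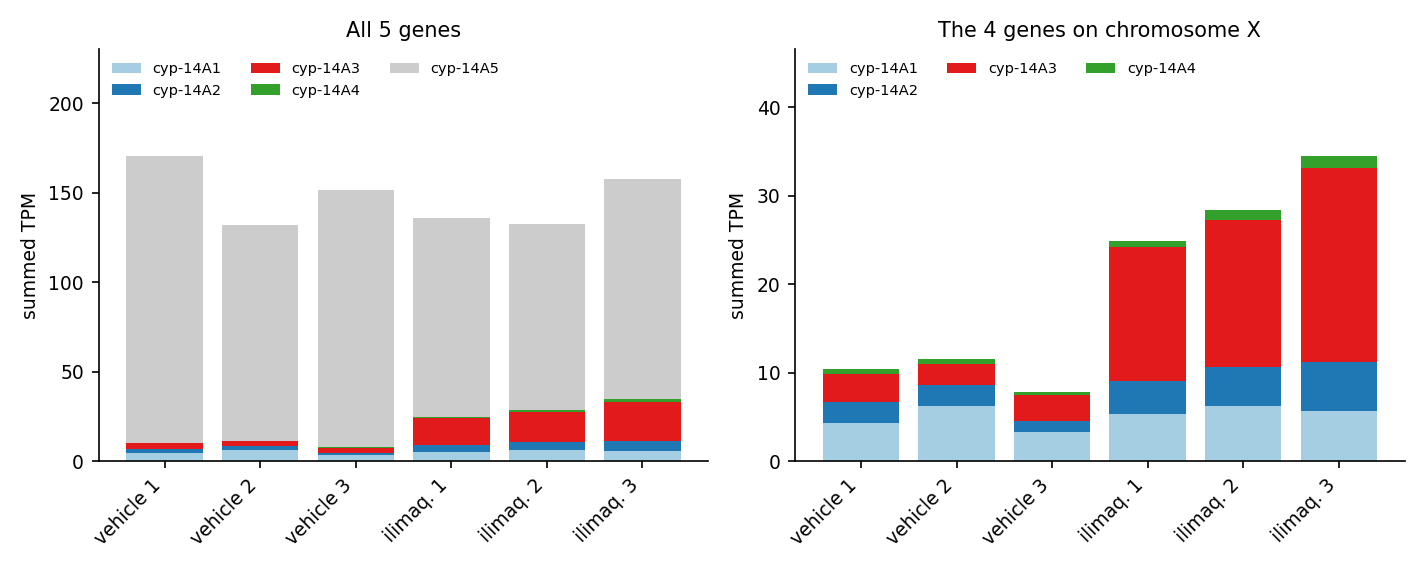
Summed TPM of the cyp-14A genes (y axis) in each library (x axis), with 1 colour per gene, for all 5 genes on the left and for the 4 chromosome X genes on the right. The totals on the left overlap between groups at 132 to 170 and 133 to 157 TPM, and the cyp-14A3 segment on the right is the one that grows most.

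Whether 2 members differed in their response was asked from their ratio within each library, which removes differences between libraries that both genes share. The log2 ratio of cyp-14A3 to cyp-14A5, from CPM + 0.5, was -5.63 ± 0.00880 with vehicle and -2.82 ± 0.188 with ilimaquinone, a difference of 2.81 ± 0.11 (SE). The ratio of cyp-14A3 to its neighbour cyp-14A4 differed by 1.72 ± 0.18, with no overlap between groups. That of cyp-14A2 to cyp-14A3 differed by -1.41 ± 0.31, and that of cyp-14A1 to cyp-14A3 by -2.16 ± 0.37. The ratio of cyp-14A2 to cyp-14A4 differed by 0.30 ± 0.15, the smallest of the 10 pairs, and by 0.11 from CPM + 0.1, where its groups overlapped (exact permutation p = 0.7). That of cyp-14A1 to cyp-14A4 differed by -0.44 ± 0.23 from CPM + 0.5 and by -0.73 from CPM + 0.1. From CPM + 0.5 the groups did not overlap in 9 of 10 pairs. The exception was cyp-14A1 to cyp-14A5, with a difference of 0.64 ± 0.35 (exact permutation p = 0.3). The 10 ratios are built from 5 genes and are not independent. Of these genes 3 were higher and 1 was lower without overlap on their own. How often ratios of other gene pairs separate the groups was not computed, so this count is not weighed. The two-sided exact permutation test of 3 against 3 libraries cannot go below p = 0.1, the value of the other 9 pairs, and the adjusted value over the 10 pairs was 0.111, so no pair could pass at this sample size.

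Within a group the members of the cluster did not follow one another in every library. In the ilimaquinone group cyp-14A2, cyp-14A3 and cyp-14A4 were highest in replicate 3, by 0.29, 0.31 and 0.33 above their group mean on the log2 scale, and cyp-14A5 was also highest there, by 0.14. In the vehicle group cyp-14A1, cyp-14A2 and cyp-14A4 were highest in replicate 2, by 0.48, 0.32 and 0.15, while cyp-14A3 and cyp-14A5 were lowest there, at -0.18 and -0.17. In the vehicle group none of the 5 was highest or lowest in replicate 1.

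The transcript table listed 1 transcript for each member, with the same counts as the gene, so it holds no isoform to compare. Tested among 22238 transcripts in edgeR, the cyp-14A3 transcript was the 1 called of the 5, higher, where 0.234% of all transcripts were called higher (log2 fold change 2.64 ± 0.22, adjusted p = 0.0196). In DESeq2, 2 of the 5 transcripts were called higher, where 3.69% of all were. Without any one library the edgeR adjusted p of the cyp-14A3 transcript was 0.0541 to 0.108, with log2 fold changes of 2.45 to 2.74, so this call was lost without vehicle replicate 1, 2 or 3 or ilimaquinone replicate 1, 2 or 3. In the gene test the cyp-14A3 call held in each of these 6 fits. The cause of this difference was not tested.

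No tested gene around the members was called. Within 10000 bases of a member the table listed 29 other genes, of which 13 were abundant enough to test. None of the 13 was called by edgeR or DESeq2, 2 were lower at an unadjusted p under 0.05, and 12 had a negative log2 fold change. Of all 16506 tested genes edgeR called 1.47%, and DESeq2 called 5.34% higher and 5.75% lower. At an unadjusted p under 0.05, 11.8% of them were lower, and 7918 had a positive log2 fold change. At these shares 0 calls among 13 genes do not set the neighbours apart. The plant homeodomain finger gene phf-33 lies between cyp-14A3 and cyp-14A4, 1096 bases from cyp-14A3. It was at 4.87, 1.92 and 1.64 CPM in vehicle replicates 1 to 3 and at 1.30 to 1.39 CPM with ilimaquinone (log2 fold change -1.07 ± 0.45, edgeR adjusted p = 0.228). Leaving out vehicle replicate 1 gave phf-33 a log2 fold change of -0.42. On the other flank K09A11.1, 451 bases from cyp-14A1 on the opposite strand, was at 6.55 to 9.39 CPM with vehicle and 6.37 to 7.26 CPM with ilimaquinone (log2 fold change -0.13 ± 0.20, edgeR adjusted p = 0.719). Beside cyp-14A4 the gene R04D3.2 was at 7.84 CPM in vehicle replicate 1 and at 1.32 to 1.95 CPM in the other 5 libraries, and its log2 fold change of -0.90 ± 0.67 turned to 0.38 without that library. Near cyp-14A5 the ammonium transporter gene rhr-1 was at 50.3 to 64.0 CPM with vehicle and 44.3 to 51.3 CPM with ilimaquinone (log2 fold change -0.23 ± 0.12, edgeR adjusted p = 0.312), or -0.14 without vehicle replicate 2. Of the 13 neighbours 9 were highest in vehicle replicate 1. The share of all tested genes highest in that library was not computed, so this count does not set the neighbours apart. No member overlapped another, and the 5 non-coding genes inside members' loci had 0 counts in all libraries. The sources used here give no strand setting for the counting, and the members' sequences were not used here, so reads shared between members were not tested.

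**Figure D3:**
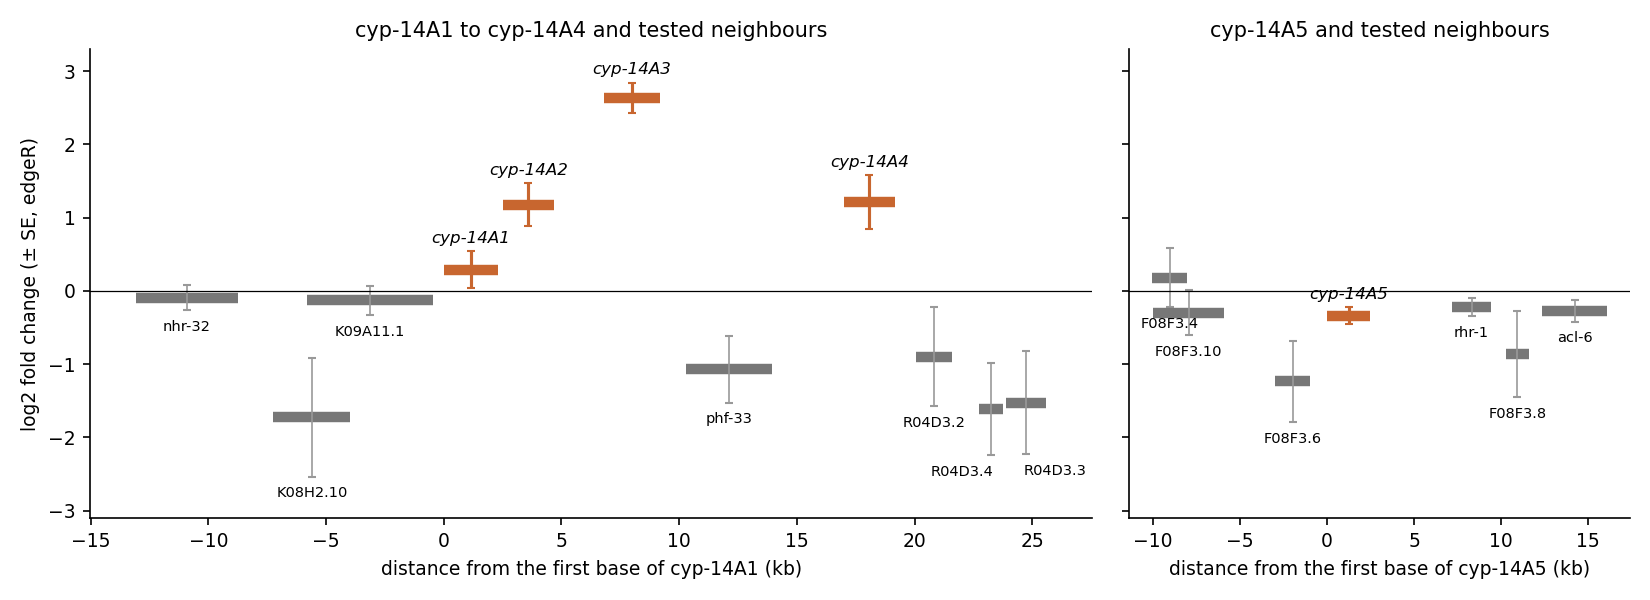
Log2 fold change of ilimaquinone against vehicle (y axis, ± SE) against distance in kb from the first base of cyp-14A1 (left) or cyp-14A5 (right); thick bars span each gene's locus, orange for members and grey for other tested genes within 10000 bases of a member. The 4 members on the left lie between 0.29 and 2.64, and the grey genes among them at or below -0.09.

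The rest of the P450 family gives the setting of cyp-14A3. Of 75 other genes with a cyp- symbol, 67 were tested. In edgeR 4 rose and 0 fell, where 1.14% of all tested genes were called higher and 0.327% lower. DESeq2 called 12 higher and 2 lower, where it called 5.34% and 5.75% of all tested genes. Their median log2 fold change was 0.26. Those that rose were cyp-33B1, cyp-33C2, cyp-29A2 and cyp-34A10. The gene cyp-33B1 rose by 5.11 ± 0.25 on the log2 scale, from 4.08 to 6.95 CPM with vehicle to 164 to 191 CPM with ilimaquinone. The difference of cyp-33C2 was 1.43 ± 0.24, that of cyp-29A2 0.96 ± 0.16 and that of cyp-34A10 0.86 ± 0.14, all on the log2 scale. These 3 calls had adjusted p of 0.0408 to 0.0473 in edgeR and were lost without vehicle replicate 2 or 3 or any one ilimaquinone replicate, so that 1 other P450 gene was called then, and 7 higher without vehicle replicate 1, where 2.68% of all tested genes were higher and 1.63% lower. Under the same 6 fits cyp-14A3 stayed past the threshold, with edgeR adjusted p of 0.00547 to 0.0394.

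By subfamily, the 14A subfamily had the second highest median log2 fold change, 1.18, after the single gene of 33B. The 34A subfamily had a median of 0.68 over 9 tested genes, with 1 called higher by edgeR and 4 called by DESeq2. For 25A the median was 0.54 over 6 tested genes, with 0 called by edgeR and 2 by DESeq2. The 13A genes had a median of -0.03 over 9 tested genes with 0 called by either tool. The 35A genes, a set known for responding to foreign compounds, ranged from cyp-35A4 at -1.01 ± 0.38 to cyp-35A1 at 1.45 ± 0.44, with 0 called by edgeR and 2 by DESeq2.

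**Figure D4:**
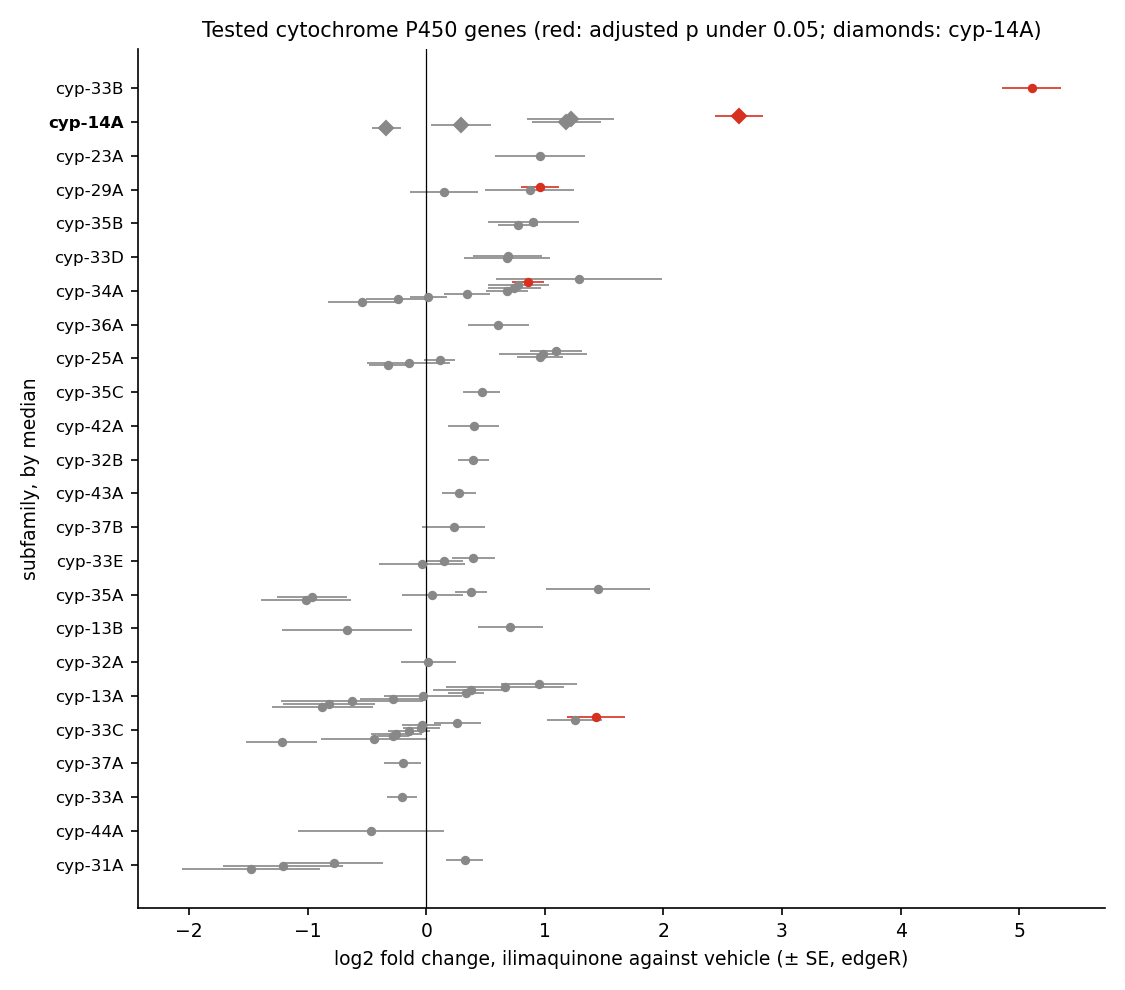
Log2 fold change of ilimaquinone against vehicle (x axis, ± SE, edgeR) for the 72 tested P450 genes, grouped by subfamily and ordered by subfamily median (y axis); red marks an adjusted p under 0.05, and diamonds are the cyp-14A genes. Of the diamonds only cyp-14A3, at 2.64, is red, and cyp-33B1, at 5.11, is the 1 P450 gene beyond it.

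Genes that serve P450 enzymes were also looked at. The reductase gene emb-8 was at 194, 225 and 229 CPM in vehicle replicates 1 to 3 and at 299, 284 and 304 CPM in ilimaquinone replicates 1 to 3, without overlap. The difference on the log2 scale was 0.45 ± 0.10 (edgeR adjusted p = 0.0810; DESeq2 adjusted p = 0.00208), and without vehicle replicate 1 it was 0.38 (edgeR adjusted p = 0.0420). The cytochrome b5 genes cytb-5.1 and cytb-5.2 had log2 fold changes of 0.23 ± 0.10 and 0.17 ± 0.11, which were 0.15 without vehicle replicate 1 and 0.08 without vehicle replicate 3. Of the 3 genes edgeR called 0, with 1 at an unadjusted p under 0.05, and DESeq2 called emb-8. Of all tested genes edgeR called 1.47%, DESeq2 called 5.34% higher, and 10.1% were higher at an unadjusted p under 0.05.

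None of 13 transcriptional regulators tied to xenobiotic, lipid or P450 genes was called by edgeR, and DESeq2 called 1, with 3 of the 13 at an unadjusted p under 0.05. Over all tested genes edgeR called 1.47%, and DESeq2 called 5.34% higher and 5.75% lower. These adjusted calls do not set the 13 apart. At an unadjusted p under 0.05 in edgeR, 10.1% of all tested genes were higher and 11.8% lower. The 3 regulators there, nhr-48, skn-1 and hif-1, were all higher. The median log2 fold change of the 13 was 0.16, and that of all tested genes was -0.02. The mediator subunit gene mdt-15, whose product is needed for the response of several detoxification genes to ingested compounds, was at 299 to 366 CPM with vehicle and 375 to 397 CPM with ilimaquinone (log2 fold change 0.16 ± 0.11, edgeR adjusted p = 0.401). The nuclear receptor gene nhr-48 had the highest log2 fold change of the 13, at 0.50 ± 0.11, with 40.9, 45.6 and 49.4 CPM in vehicle and 64.9, 67.2 and 60.2 CPM in ilimaquinone replicates 1 to 3. Its edgeR adjusted p was 0.0811, and DESeq2 gave 0.00257. The log2 fold change of skn-1, which encodes an Nrf-type factor of the oxidative stress response, was 0.30 ± 0.11 and that of the hypoxia factor gene hif-1 0.34 ± 0.13. The steroid receptor gene daf-12 was at 0.39 ± 0.17 and the fat metabolism regulator nhr-49 at 0.14 ± 0.08. The aryl hydrocarbon receptor gene ahr-1 and its partner gene aha-1 were at 0.18 ± 0.28 and 0.21 ± 0.15. The nuclear receptor genes nhr-8, nhr-80, nhr-86 and nhr-176 were at -0.06 ± 0.11, -0.02 ± 0.11, 0.11 ± 0.13 and -0.02 ± 0.22, and the intestinal GATA factor gene elt-2 at -0.09 ± 0.09. Single libraries moved several of these values by over 1.5 times. Without vehicle replicate 1 the log2 fold change of mdt-15 was 0.06, that of daf-12 0.23, that of aha-1 0.09 and that of hif-1 0.23. That of nhr-86 was 0.22 without ilimaquinone replicate 2 and 0.03 without ilimaquinone replicate 3, and that of elt-2 was -0.05 without ilimaquinone replicate 1 and -0.15 without ilimaquinone replicate 3.

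The genes with the most similar pattern over the 6 libraries were taken for each member by the smallest root-mean-square difference of log2 CPM, each gene centred on its own mean, among 10360 tested genes with a mean of at least 5 CPM. Since they were chosen for the same libraries' pattern, their fold changes and highest libraries follow from the choice and are given with no test. For cyp-14A3 these were F35E8.6 at a difference of 0.12, the C-type lectin gene clec-18 at 0.17 and pals-4 at 0.21. The gene F35E8.6, an uncharacterized gene on chromosome V, was at 38.2, 36.8 and 45.7 CPM in vehicle and 205, 207 and 248 CPM in ilimaquinone replicates 1 to 3. The gene clec-18 was at 12.2, 15.02 and 16.7 CPM in vehicle and 82.8, 84.1 and 103.9 CPM in ilimaquinone replicates 1 to 3. By this choice F35E8.6, clec-18 and pals-4 were all highest in ilimaquinone replicate 3, as cyp-14A3 was. The log2 fold changes of F35E8.6, clec-18 and pals-4 were 2.45 ± 0.13, 2.62 ± 0.16 and 2.34 ± 0.19.

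For cyp-14A2 the closest genes were D1086.3, F57H12.6 and clec-1, at differences of 0.12 to 0.16, and for cyp-14A4 they were F57H12.6, F45E1.4 and the collagen gene col-150, at 0.14 to 0.18. The uncharacterized gene F57H12.6 was thus named for both. Its levels were 23.8, 34.0 and 20.2 CPM in vehicle and 47.8, 54.2 and 65.9 CPM in ilimaquinone replicates 1 to 3, a difference of 1.10 ± 0.22 on the log2 scale.

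For cyp-14A1 the closest were the P450 gene cyp-37B1 at 0.06, the amino acid transporter gene aat-1 at 0.08 and H41C03.1 at 0.08. In cyp-37B1, chosen for this pattern, vehicle replicate 2 was also highest, at 10.2 CPM. Its vehicle replicates 1 and 3 were at 6.01 and 5.27 CPM and its ilimaquinone libraries at 8.36 to 8.51 CPM. For cyp-14A5 they were the emerin gene emr-1 at 0.03, akir-1 at 0.05 and the nucleolar protein gene nol-56 at 0.05. Their log2 fold changes were -0.34 ± 0.13, -0.32 ± 0.11 and -0.36 ± 0.12.

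**Figure D5:**
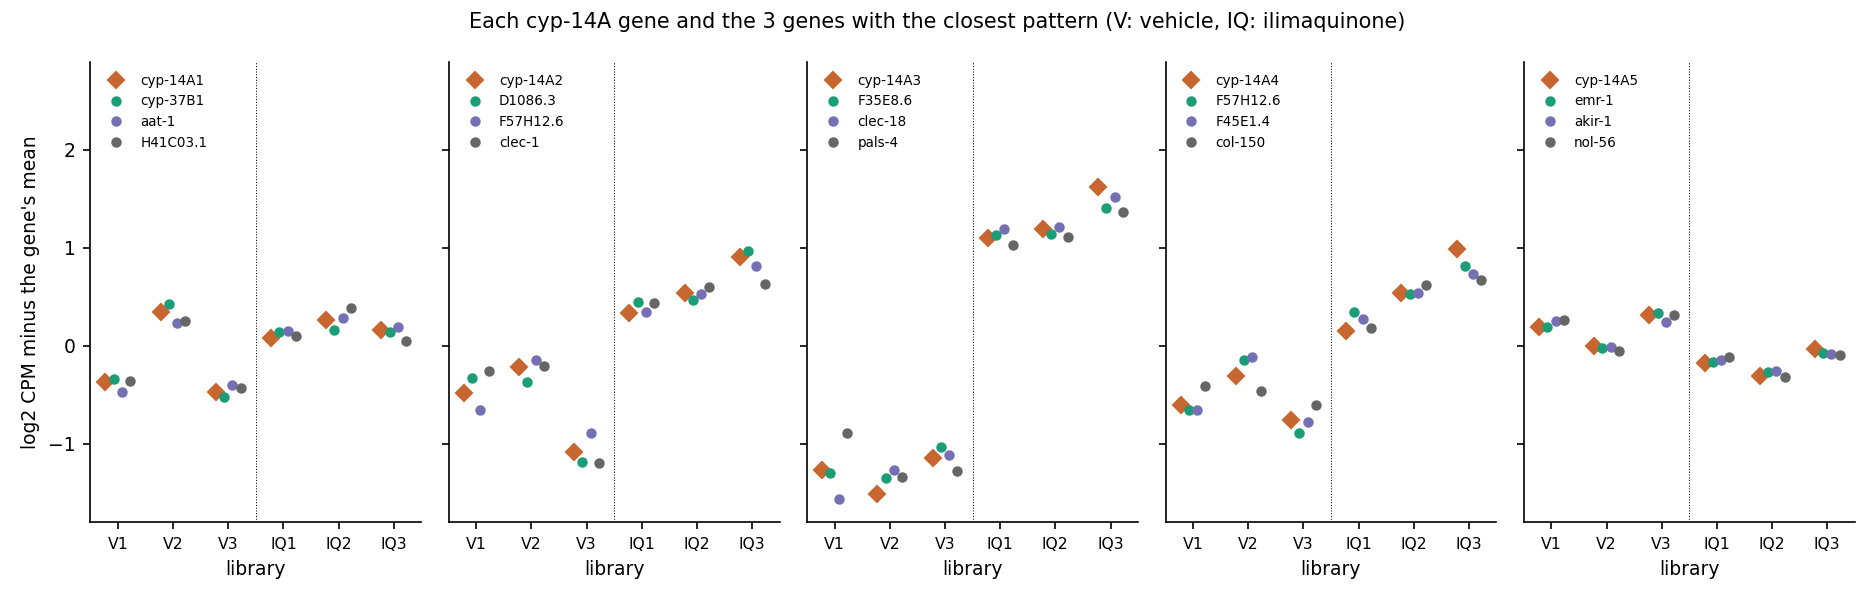
Log2 CPM minus each gene's own mean (y axis) in the 3 vehicle (V) and 3 ilimaquinone (IQ) libraries (x axis) for each cyp-14A gene (orange diamonds) and the 3 genes with the closest pattern (circles), 1 panel per member. The panel of cyp-14A3 shows the widest step between groups, and that of cyp-14A5 the only step downward.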

How the data were processed

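Poly(A) RNA of 6 whole-animal libraries was analysed, grouped by sample title. Libraries were prepared with a stranded kit starting at 1 µg of total RNA, per the labels' protocols. The submitters' processing notes name HISAT2 2.1.0, SAMtools 1.9, bcl2fastq 2.20.0 and build WBcel235. Which program counted reads, on which strand and with which annotation release is not given in those sources. For each gene and transcript the authors deposited counts with FPKM and TPM values, per the file headers. The deposited counts were whole and are called estimated counts, since in every library all transcripts with fewer than 200 counts lay 0 to 1 above the value implied by the deposited FPKM and length, within a tolerance of 0.05, which does not settle how they were made. The planned count test was kept and no rounding was needed. The deposited FPKM values served that check only, and the deposited TPM values served levels and 3 alternatives.

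Counts were fitted in R 4.3.3 with edgeR 4.0.16 (filterByExpr, TMM, glmQLFit, glmQLFTest, no covariate), after a test on simulated data, and p-values were adjusted by Benjamini-Hochberg at a threshold of 0.05. TMM factors scaled the CPM. Each standard error was taken as the log2 fold change over the root of its F statistic. The common biological coefficient of variation was 28.4%, which with 3 libraries per group limits the precision. Alternatives were DESeq2 1.42.0, other scalings and filters, a replicate block, limma 3.58.1 on log2(TPM + 1) or log2(TPM + 0.1), and leaving out each library. All other P450 genes that were called, the partners and regulators listed, the genes within 10000 bases and the 3 closest patterns per member were named by rule. The neighbours described, the 35A genes and cyp-13B1 were chosen after their values were seen. Of 12 intestine markers listed, opt-2 is a synonym and was not matched. The members and lists were chosen with earlier results of these data known.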

Additional observations from a re-analysis of the deposited data

How the results depend on the processing

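The cyp-14A3 call held in all 16 alternatives, with log2 fold changes of 2.29 to 2.75 and adjusted p up to 0.0394, and no member changed direction. Of 5 members DESeq2 called 2, as it did among their transcripts, cyp-14A2 being the addition (log2 fold change 1.17). The pairwise ratios kept their direction throughout but not their size. That of cyp-14A2 to cyp-14A4 differed by 0.11 from CPM + 0.1, 0.12 from TPM + 0.1 and 0.16 without vehicle replicate 3, against 0.30, and that of cyp-14A1 to cyp-14A4 by -0.73 from CPM + 0.1, -0.72 from TPM + 0.1 and -0.28 without vehicle replicate 2 or ilimaquinone replicate 3, against -0.44. That of cyp-14A1 to cyp-14A5 was 0.43 without vehicle replicate 3 and 0.97 without vehicle replicate 2, against 0.64. Counts of calls moved more. Over all genes there were 1831 calls in DESeq2, 69 without a filter, 403 and 379 with limma on log2(TPM + 1) and log2(TPM + 0.1), and 11 to 725 without one library, against 242. Other P450 genes gave 14 calls in DESeq2, 1 with upper-quartile factors, 1 without a filter and 1 to 7 without one library, against 4. The transcript calls were 0 to 0 without one library, against 1. The cause of these shifts was not tested.

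The replicate number as a block gave 22 calls over all genes, 1 other P450 gene and 0 cyp-14A transcripts, and cyp-14A3 kept its call. Same-numbered libraries correlated in their deviations from the group means at -0.16, 0.29 and -0.16. Vehicle replicate 1 correlated best with ilimaquinone replicate 3, at 0.37. The labels do not say what a shared number marks, and so few libraries cannot settle whether it pairs them.

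Signs turned for 7 named genes. Without one library, the log2 fold change of nhr-8 was -0.15 to 0.014, that of nhr-80 -0.088 to 0.017, that of ahr-1 -0.046 to 0.32 and that of nhr-176 -0.17 to 0.18. For K09A11.1 it was -0.23 to 0.061, for R04D3.2 -1.31 to 0.38 and for F08F3.4 -0.15 to 0.76. The turned values arose without vehicle replicate 1 for nhr-8, ahr-1, K09A11.1 and R04D3.2, without vehicle replicate 2 for nhr-176, without vehicle replicate 3 for F08F3.4, and without vehicle or ilimaquinone replicate 3 for nhr-80. For nhr-176 it was also 0.012 with the replicate block, 0.022 and 0.028 with limma on log2(TPM + 1) and log2(TPM + 0.1), and 0.022 without its filter. The gene cyp-14A4 had the fewest counts of the members, 15 to 64 per library, and was below the stricter filter and the 2 filtered TPM fits, which gave it no value.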
